A study of Homo sapiens with 4 samples.

Results

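Collagens and laminins are the long structural proteins of the extracellular matrix, and their genes were examined here for N6-methyladenosine (m6A) in C643, a cell line that was established from a human anaplastic thyroid carcinoma. The genes were taken from the GENCODE annotation by symbol alone, as every protein-coding gene named COL, digits, A and digits or named LAMA, LAMB or LAMC with a digit. This gave 56 genes of 20046, of which 44 encode collagen chains and 12 encode laminin chains. A listed m6A site was assigned to a gene when it lay in an exon of any annotated transcript on the same strand. In this way 125 of the 18789 listed sites fell in 12 of the 56 genes, and none of the 125 also lay in an exon of another gene on its strand. The RNA was polyadenylated RNA of untreated wild-type cells in 1 group of 3 biological replicates, sequenced as 4 libraries because replicate 1 was run as 2 technical libraries.

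The sites came from miCLIP2, which crosslinks an anti-m6A antibody to RNA fragments and reads the modified position from where reverse transcription stops, and from m6Aboost, a classifier that gives each candidate adenosine a prediction score between 0 and 1. The deposited list pools the replicates and holds neither read numbers nor values per replicate, so no spread between replicates could be given and the depth behind a site is unknown. All shares below carry 95% Wilson intervals, and differences of shares carry Newcombe intervals built from them. They cover the counting of sites or motifs only, and sites of 1 gene are not independent of each other. Sequence and transcript region were inputs of the classifier, so listed shares by motif or region depend partly on it. Transcript levels were not analysed here. Absence of methylation and lack of reads therefore cannot be told apart in a gene with no listed site, and the identity of the cells could not be set against marker levels.

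Collagen chains wind in threes into a triple helix, which requires a glycine at regular steps along the chain, so their helical parts are long runs of Gly-X-Y triplets in which X and Y are often proline and hydroxyproline. The codons for these runs are spread over very many short exons, a gene structure that sets the family apart from most coding genes. Laminins are trimers of an alpha, a beta and a gamma chain that polymerise in basement membranes, and they hold no such helix. Most m6A in messenger RNA is placed by the METTL3 methyltransferase complex at DRACH sequences (D stands for A, G or T, R for A or G and H for A, C or T), and it is known to be frequent in last exons and near stop codons and sparse in short internal exons.

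The sequences around the sites are given first, since the results turn on sites in last exons and in short exons, many of which code for the collagen helix. Each line is 21 nt of the GRCh38 genome on the strand of the gene, 5' to 3', with the site in the middle and its pentamer in capitals. The first set holds the site with the highest score in each of the 12 genes, and 9 of these lie in the last exon.
COL6A3, chr2:237374533-237374553, minus strand: ttcatcccGGACTttgccgtg
COL6A2, chr21:46132484-46132504, plus strand: cacgagaaGGACTatgacagc
COL18A1, chr21:45513567-45513587, plus strand: ggacaagtGGACTcagggcag
COL7A1, chr3:48564227-48564247, minus strand: ccccctgtGGACAaaccccca
COL5A1, chr9:134842382-134842402, plus strand: ctgaccctGGACAgtgaaggc
COL6A1, chr21:46004541-46004561, plus strand: ttacaattAAACTcaaagcaa
COL4A2, chr13:110512322-110512342, plus strand: cagcacttAGACCtgccagcc
LAMA5, chr20:62309241-62309261, minus strand: gtctatttGGACTctaagctc
LAMB2, chr3:49123244-49123264, minus strand: tcggcatcGGACAgaggcact
LAMB3, chr1:209615077-209615097, minus strand: agccaatgGGACAgttacact
COL13A1, chr10:69802068-69802088, plus strand: gcccagaaGGACTgacagcgc
LAMC1, chr1:183142704-183142724, plus strand: atcatgaaGGACAttcgcaat

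The second set holds the 10 highest scores among sites in internal exons of at most 200 nt. In 6 of them the capitals begin with a whole glycine codon, GGA, whose last base is the listed A, and these 6 lie in the collagen genes COL7A1, COL5A1, COL6A1 and COL6A2, with a further GGA codon in LAMA5. Windows of sites within 10 nt of an exon edge run into the intron, which holds for 3 of the 10 here.
COL5A1, chr9:134802946-134802966, plus strand: cccccggtGAACAggggcttc
COL7A1, chr3:48569730-48569750, minus strand: ggagtgcaGGACTaaagggtg
COL7A1, chr3:48566912-48566932, minus strand: gccccgaaGGACTtcagggcc
COL5A1, chr9:134805162-134805182, plus strand: gagctcttGGACTgaaaggca
COL7A1, chr3:48570130-48570150, minus strand: gaccccgaGGACTcacggtgg
COL6A1, chr21:45991016-45991036, plus strand: gtgcctttGGACTgaaaggag
COL6A2, chr21:46125455-46125475, plus strand: acccccccAGACTgtgagaag
LAMA5, chr20:62317665-62317685, minus strand: cacagcctGGACCaggctaag
LAMA5, chr20:62311412-62311432, minus strand: ggcctagaGGACTgcaggcca
COL6A2, chr21:46116798-46116818, plus strand: ggaccgatGGACAgaaggtag

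The third set holds the 3 lowest scores of the 125 sites, 0.503 in COL7A1, 0.506 in COL6A2 and 0.506 in COL4A2. All 3 lie in internal exons of at most 200 nt.
COL7A1, chr3:48569369-48569389, minus strand: gaccctggTGACAaggtacag
COL6A2, chr21:46117410-46117430, plus strand: ggcgcatcGGACCtcctggct
COL4A2, chr13:110506528-110506548, plus strand: gtgggcatGAACAaactctgg

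Of the 12 genes with sites, 8 encode collagens (8 of 44, 18.2%, 9.51 to 32.0) with 107 sites and 4 encode laminins (4 of 12, 33.3%, 13.8 to 60.9) with 18 sites. Together 21.4% of the 56 genes held a site (12.7 to 33.8), against 19.6% of all protein-coding genes, so the share was close to the background. The number of sites in genes that had any was higher. The median was 10 sites per gene (quartiles 5.5 and 14) in the 12 genes and 3 (quartiles 2 and 7) over the 3939 protein-coding genes with a site. The transcripts also offered more motifs, with a median of 109 DRACH motifs in a median length of 5791.5 nt against 48 motifs and 2821 nt in the other host transcripts. The share of DRACH motifs that was listed was 6.54% in the collagen and laminin transcripts (102 of 1560, 5.42 to 7.88), against 7.33% over all protein-coding host transcripts with a site. The direction depended on the comparison, since other hosts with at least 20 exons had 4.56% listed, 1.98 points below the collagen and laminin transcripts (0.837 to 3.33).

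Collagen VI, which forms beaded microfibrils, held the most sites. COL6A3 had 25, COL6A2 had 19 and COL6A1 had 11, so all 3 chains of the classical collagen VI trimer carried sites, whereas COL6A5, COL6A6 and the related COL28A1 had none. Among all genes with a site, 16 (0.406%) had at least as many as COL6A3 and 54 (1.37%) at least as many as COL6A2, the gene itself included. These ranks do not account for the supply of motifs. In COL6A3 22 of 227 DRACH motifs were listed (9.69%, 6.49 to 14.2), an interval that includes the 7.33% of all host transcripts. In COL6A2 12 of 66 were listed (18.2%, 10.7 to 29.1). COL18A1, the chain whose C-terminal end is released as endostatin, and COL7A1, the anchoring-fibril collagen of skin and other epithelia, had 14 sites each. COL5A1, a regulatory chain of collagen fibrils, had 12, COL4A2, a basement membrane chain, had 9 and the transmembrane collagen COL13A1 had 3. The laminin sites were spread over LAMA5 with 6, LAMB2 with 6, LAMB3 with 4 and LAMC1 with 2. LAMA5, LAMB2 and LAMC1 encode the 3 chains of a basement membrane trimer, and LAMB3 encodes a beta chain of epithelial basement membranes.

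The other 44 genes had no listed site. They included the fibrillar chains COL1A1, COL1A2, COL2A1, COL3A1, COL5A2, COL5A3, COL11A1, COL11A2, COL24A1 and COL27A1, the collagen IV chains COL4A1, COL4A3, COL4A4, COL4A5 and COL4A6, and the network-forming COL8A1, COL8A2 and COL10A1. All 10 fibril-associated genes, COL9A1, COL9A2, COL9A3, COL12A1, COL14A1, COL16A1, COL19A1, COL20A1, COL21A1 and COL22A1, had none. The same was true of COL6A5, COL6A6, COL28A1, COL15A1, COL17A1, COL23A1, COL25A1 and COL26A1, and of the laminin chains LAMA1, LAMA2, LAMA3, LAMA4, LAMB1, LAMB4 and LAMC3. These transcripts did not lack the motif. On the Ensembl canonical transcripts the 44 genes had between 47 and 288 DRACH motifs with a median of 131.5, and the 12 genes with sites had between 65 and 227 with a median of 124. In collagen IV the sites were in COL4A2 and not in COL4A1, the chain with which it trimerises and which lies beside it on chromosome 13 in the opposite direction. Whether the genes without sites were expressed was not analysed here.

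**Figure D1:**
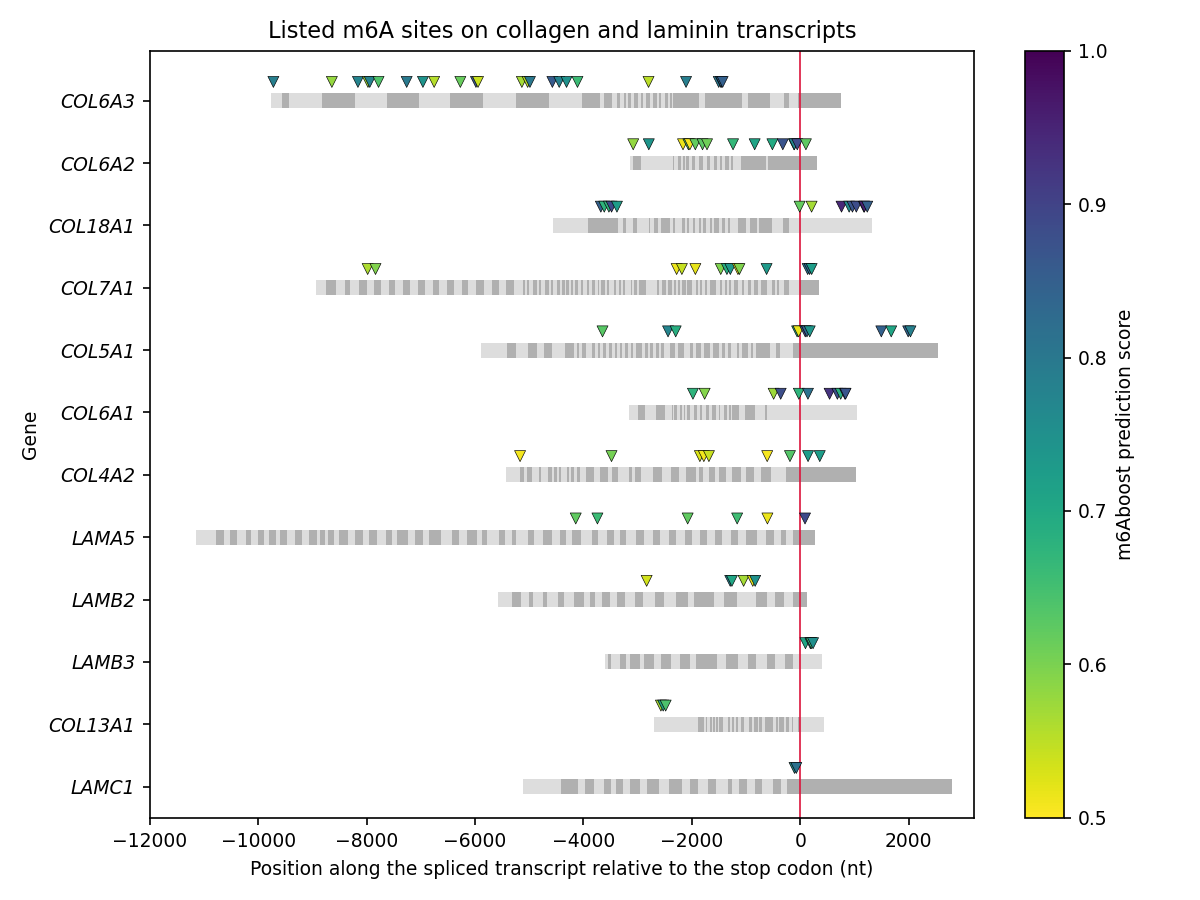
Listed sites (triangles, coloured by prediction score) along the spliced transcripts of the 12 genes, with alternating grey shades marking successive exons and the red line the first base of the stop codon; the x axis is the distance from the stop codon in nt. The 9 COL4A2 sites are drawn on its canonical transcript, and the 3 COL6A2 sites in alternative last exons are not drawn. Sites of COL6A3 lie along its coding sequence far from the stop codon, those of LAMB3 in the 3' UTR, and those of COL7A1 in short coding exons with 3 in the 3' UTR.

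Sites were placed on 1 host transcript per gene, the longest with adequate annotation support, which held 114 of the 125. The exceptions were 2 genes. The host transcript of COL4A2 chosen in this way has 4 exons and holds 1 of its 9 sites, so this gene is described on its canonical transcript of 48 exons, which holds all 9. In COL6A2 3 sites, with scores of 0.725, 0.608 and 0.746, lie in alternative last exons of other transcripts, where 1 transcript reads 2 of them as coding and another reads all 3 as 3' UTR. Described on these transcripts, the remaining 122 sites fell in the coding sequence 84 times, in the 3' UTR 32 times and in the 5' UTR 6 times.

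By the host transcripts alone, 43 of 114 sites (37.7%, 29.4 to 46.9) lay in the last exon, 36 (31.6%, 23.8 to 40.6) in internal exons over 200 nt, 31 (27.2%, 19.9 to 36.0) in internal exons of at most 200 nt and 4 (3.51%, 1.37 to 8.68) in first exons. The last exon held 72.7% (72.02 to 73.3) of the sites of the 3669 other protein-coding hosts and 61.4% (59.4 to 63.4) of those of the 418 with at least 20 exons. Sites in 3' UTRs made up 26.3% of the collagen and laminin sites (30 of 114, 19.1 to 35.1), 55.8% (55.04 to 56.5) in the other hosts and 50.6% (48.5 to 52.7) in those with at least 20 exons. The coding sequence accordingly held 68.4% (59.4 to 76.2), 41.7% and 48.3%. These intervals did not overlap between the collagen and laminin genes and either comparison, and a single gene, COL6A3, contributed 25 of the 114 sites and none in the last exon. Without it the last-exon share was 48.3% (38.2 to 58.5) and the 3' UTR share 33.7% (24.7 to 44.02).

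The motifs were also placed differently. Of the 1560 DRACH motifs in the host transcripts, 865 (55.4%) were in internal exons of at most 200 nt and 326 (20.9%) in last exons. In the other hosts these shares were 27.6% and 50.99%. The listed share of motifs, which is counted within each exon class, was 3.24% in short internal exons (28 of 865, 2.25 to 4.64), 10.5% in longer internal exons (32 of 305, 7.53 to 14.4) and 11.7% in last exons (38 of 326, 8.61 to 15.6). The last exon exceeded the short internal exons by 8.42 percentage points (5.07 to 12.5). With COL4A2 on its canonical transcript, whose last exon is shorter, the difference was 12.9 points (8.69 to 18.1), and with coding motifs only it was 21.4 points (10.7 to 36.4).

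The same order held in the other hosts, with 1.38% (1.29 to 1.47) of motifs listed in short internal exons, 8.25% (7.92 to 8.60) in longer internal exons and 10.4% (10.2 to 10.6) in last exons, a difference between last and short internal exons of 9.04 points (8.84 to 9.25). In last exons the collagen and laminin share was higher than that of the other hosts by 1.24 points with an interval that included 0 (-1.81 to 5.18). With all genes on canonical transcripts this difference was 5.49 points (1.44 to 10.5), with 16.3% of collagen and laminin motifs listed (41 of 252). Moving COL4A2 alone to its canonical transcript gave the same 41 of 252, so this share depended on the transcript chosen for that gene. Within the last exon of the members, 24.4% of coding motifs (10 of 41, 13.8 to 39.3) and 9.82% of 3' UTR motifs (28 of 285, 6.88 to 13.8) were listed. In the 3' UTR the share was 21.4% (9 of 42, 11.7 to 35.9) within 200 nt of the stop codon and 7.82% (19 of 243, 5.06 to 11.9) beyond.

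**Figure D2:**
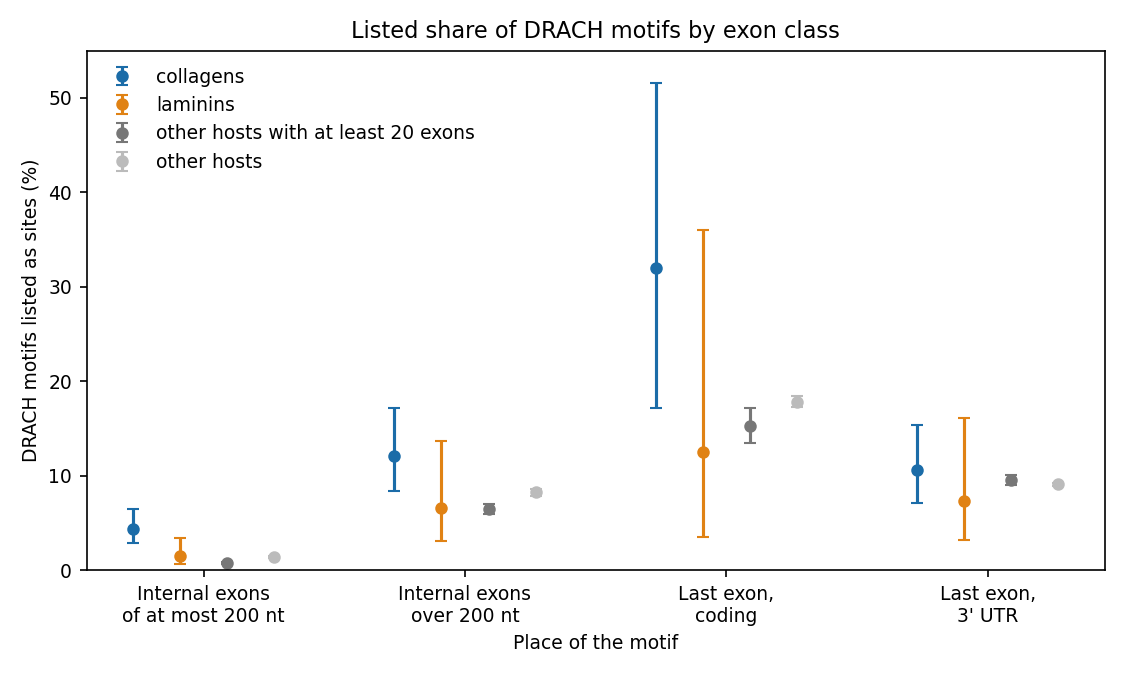
Percent of DRACH motifs listed as sites (y axis) by the place of the motif (x axis) for collagen transcripts, laminin transcripts, other protein-coding hosts with at least 20 exons, and all other hosts, which include the former; points are shares on the host transcripts and bars 95% Wilson intervals. In internal exons of at most 200 nt the collagens stood at 4.36% and the other hosts at 1.38%. In 3' UTRs of last exons all 4 groups lay between 7.35% and 10.6% on the host transcripts drawn. On canonical transcripts, not drawn, this 3' UTR share was 17.7% in collagens (25 of 141, 12.3 to 24.9) and 9.39% in other hosts.

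In short internal exons the collagen and laminin transcripts had a listed share 1.86 points above that of the other hosts (0.867 to 3.26) and 2.43 points above that of hosts with at least 20 exons (1.44 to 3.84), where it was 0.803%. In the collagens alone the share was 4.36% (23 of 528, 2.92 to 6.45), and that of the laminins was 1.48% (5 of 337, 0.635 to 3.43), 0.107 points from the other hosts (-0.747 to 2.05). The comparison with the other hosts was chosen after the shares had been seen, and it rested on sites with scores below 0.7 and on 2 genes. At a score of at least 0.7 only 3 of the 865 motifs were listed (0.347%, 0.118 to 1.01), against 0.426% in the other hosts, a difference of -0.0787 points (-0.314 to 0.591). In hosts with at least 20 exons 0.195% were listed at that score (42 of 21532, 0.144 to 0.264), with overlapping intervals. Without COL6A2 and COL7A1 together the difference from all other hosts was 0.540 points (-0.283 to 1.95). The difference from hosts with at least 20 exons was not computed without these genes.

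Motif by motif, 14.8% of GGACT motifs in short internal exons were listed in the collagen and laminin transcripts (9 of 61, 7.96 to 25.7) and 6.06% (5.35 to 6.86) in the other hosts, a difference of 8.69 points (1.85 to 19.7). The collagens had 8 of 38 listed (21.1%, 11.1 to 36.3) and the laminins 1 of 23 (4.35%, 0.772 to 20.99). The laminin interval included the share of the other hosts. For GGACC the shares were 3.06% (7 of 229) and 1.19%, and for GGACA they were 4.94% (4 of 81) and 1.57%. The laminins had 1 of 55 GGACC motifs (1.82%) and 1 of 34 GGACA motifs (2.94%) listed there. These short-exon motifs are part of the comparison above, which was chosen after the shares had been seen. The 3 short-exon motifs with a score of at least 0.7 were GGACT in exons 100 and 110 of COL7A1 and GAACA in exon 39 of COL5A1. No GGACC or GGACA motif of these exons reached that score. The other hosts were not counted by motif at that score. Whether the differences by motif held there, or without COL6A2 and COL7A1, was not tested. In last exons GGACT was listed at 36.0% (9 of 25, 20.2 to 55.5) and 35.2% (34.1 to 36.3), and GGACC at 17.6% (3 of 17) and 16.4%. GGACA was higher there, at 39.1% (9 of 23) and 21.3%, a difference of 17.9 points (0.877 to 37.98). The supply of motifs differed as well. In short internal exons GGACC was 33.0% of the DRACH motifs of collagens (174 of 528), 16.3% of those of laminins and 10.4% of those of other hosts.

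The exon structure behind these counts was regular. The 8 collagen genes with sites had a median of 43 exons on their canonical transcripts, with 119 in COL7A1, and their 403 fully coding internal exons had a median length of 63 nt. Of these exons 62.5% (57.7 to 67.1) had a length that is a multiple of 9, the length of the 3 codons of a Gly-X-Y triplet, and 12.2% (9.32 to 15.7) were exactly 54 nt long. In the other hosts 12.9% (12.6 to 13.3) of internal coding exons were a multiple of 9 and 0.326% were 54 nt long. In the 4 laminins 14.3% were a multiple of 9 and none of 154 was 54 nt long, with a median length of 144 nt.

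In the 122 placed sites, 36 lay in internal exons of at most 200 nt, and 31 of these were in collagens. They came from 7 of the 12 genes. COL7A1 had 11, COL6A2 had 8, COL4A2 had 6, LAMA5 had 5, COL5A1 had 3, COL6A1 had 2 and COL6A3 had 1. Their exons were between 33 and 192 nt long with a median of 72.5 nt, and 25 of the 36 had a length that is a multiple of 9. Counting the A itself, the sites were between 1 and 72 nt from the nearest exon edge with a median of 15 nt, and 27 of the 36 were within 20 nt. The distance is bounded by the exon length, and the share of all motifs of these exons within 20 nt of an edge was not counted. These counts therefore cannot show whether the sites lay nearer to exon edges than the motifs did. Over all coding DRACH sites of spliced host transcripts, 55.9% (38 of 68, 44.1 to 67.1) were within 100 nt of a junction, whereas 86.2% of the coding DRACH motifs were. In other hosts with at least 20 exons 37.2% of such sites (34.2 to 40.3) and 85.8% of the motifs were this close, and in all other hosts 30.3% and 75.9%. The share of sites near junctions was thus below the share of motifs in each group, and the interval of the collagen and laminin share lay above those of the other hosts. At a score of at least 0.7 the collagen and laminin share was 32.3% (10 of 31, 18.6 to 49.9). The share of the other hosts was not computed at that score.

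Runs of at least 5 consecutive Gly-X-Y triplets were located in the coding sequences, which were found in all 44 collagen genes (8.19% to 85.7% of codons, median 61.2%) and in none of the 12 laminin genes. Of the 71 coding collagen sites, 24 (33.8%, 23.9 to 45.4) lay in such a run, and all 24 were in internal exons of at most 200 nt. Nearly all motifs of the runs lay in such exons, listed or not, at 339 of 342 DRACH motifs on the host transcripts. In 15 of the 24 the listed A was the last base of a GGA glycine codon. This placing was common in the runs whether or not a motif was listed, at 176 of 342 DRACH motifs (51.5%, 46.2 to 56.7) on the host transcripts. Of these motifs 7.39% were listed (13 of 176, 4.37 to 12.2), and of the other placings 4.22% (7 of 166, 2.06 to 8.45), with overlapping intervals. The pentamer of these 15 was GGACT in 6, GGACC in 4, GGACA in 3, GGACG in 1 and GGATT in 1. These 15 sites came from 5 genes, COL7A1, COL6A2, COL5A1, COL6A1 and COL4A2.

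Among the coding motifs of short internal collagen exons, 5.90% were listed inside Gly-X-Y runs (20 of 339, 3.85 to 8.94) and 0.543% outside them (1 of 184, 0.0960 to 3.01), a difference of 5.36 points (2.15 to 8.43). This comparison was chosen after the positions of the sites had been seen. With COL4A2 and all other genes on canonical transcripts the difference was 3.61 points (0.231 to 6.33), since COL4A2 had 2 of 88 motifs listed inside and 2 of 13 outside. At a score of at least 0.7 it was 0.885 points (-1.24 to 2.57). The motifs inside the runs were richer in GGAC, as the pentamers that begin with GGAC and are DRACH made up 60.2% of them (54.9 to 65.2) and 28.8% of those outside (22.7 to 35.7). Of GGACT motifs, 6 of 28 inside and 0 of 8 outside were listed, and the 0 of 8 allows a share of up to 37.5%, so a difference at this motif was not detectable with these numbers.

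**Figure D3:**
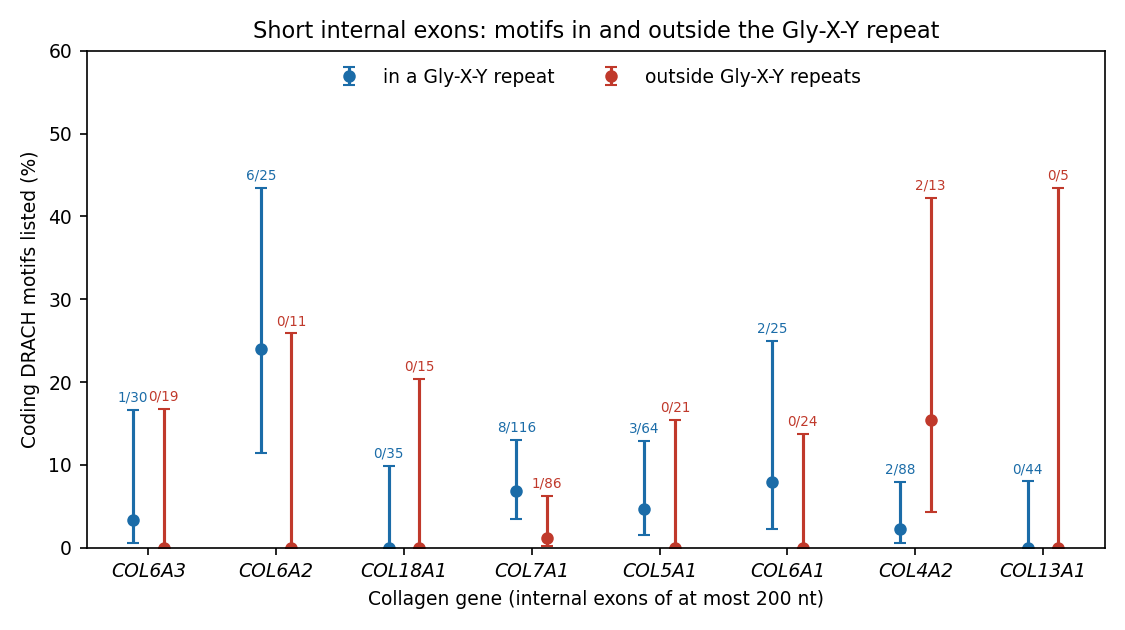
Percent of coding DRACH motifs listed (y axis) in internal exons of at most 200 nt of the 8 collagen genes with sites (x axis), inside runs of Gly-X-Y triplets (blue) and outside them (red); bars are 95% Wilson intervals and labels give listed over all motifs, with COL4A2 on its canonical transcript and the others on host transcripts. COL6A2 had 6 of 25 listed inside and COL7A1 8 of 116, while COL18A1 and COL13A1 had none listed in these exons.

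Of all in-frame GGACC motifs in the collagen transcripts with sites, that is glycine followed by proline, 4 of 133 were listed (3.01%, 1.18 to 7.48), and 130 of the 133 were in internal exons of at most 200 nt. In the other frames 6 of 63 were listed (9.52%, 4.44 to 19.3), but these motifs were spread over other exon classes as well. Within internal exons of at most 200 nt the shares were 3.08% in frame (4 of 130, 1.20 to 7.64) and 4.55% in other frames (2 of 44, 1.26 to 15.1), with overlapping intervals. The laminins had 8 in-frame GGACC motifs with none listed, which allows up to 37.5%. For GGACT, in which the glycine codon is followed by a codon that starts with CT, 7 of 26 in-frame motifs were listed (26.9%, 13.7 to 46.1) and 8 of 25 in other frames (32.0%, 17.2 to 51.6). These GGACT shares also pool exon classes. The 6 listed coding GGACT motifs of short internal exons were all in frame, so the 8 listed in other frames lay in other exons. Shares of GGACT by frame within short internal exons were not computed. By codon position, 6.87% of the short-exon motifs of collagens with the A at codon position 3 were listed (16 of 233, 4.27 to 10.9), 2.54% at position 2 (5 of 197) and none of 93 at position 1, which allows up to 3.23%. In the other hosts these shares were 1.89%, 1.37% and 1.15%.

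The distance of these sites to the exon end was also examined. Where an exon ends with a complete triplet, the last base of a GGA codon is 7 nt from the exon end, counting itself, or a multiple of 9 more. Of the 15 sites at GGA codons, 12 had such a distance, as did 150 of the 174 GGAC motifs at such codons (86.2%, 80.3 to 90.6), and 7 of the 12 were 16 nt and 3 were 7 nt from the exon end. Sites 16 nt from the end were found in exon 17 of COL5A1 (54 nt), exons 15 and 19 of COL6A1 (63 nt each), exon 14 of COL6A2 (90 nt) and exons 96, 100 and 110 of COL7A1 (36, 36 and 117 nt). Among all GGAC motifs at such codons on host transcripts, 10 of 64 at 7 or 16 nt (15.6%, 8.71 to 26.4) and 3 of 110 at other distances (2.73%, 0.932 to 7.71) were listed. Over all whole-triplet distances, 12 of 150 (8%, 4.64 to 13.5) and 1 of 24 others (4.17%, 0.739 to 20.2) were listed. The distances were picked after the sites had been seen, so these counts are a description.

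COL7A1 (chr3:48564073-48595329, minus strand) showed the short-exon pattern most fully. Its host transcript has 118 exons with a median internal length of 60 nt, and 11 of its 14 sites were in internal exons of 33 to 130 nt. Of these, 2 were near the start, in exons 7 and 8, with scores of 0.561 and 0.594, and 9 were in helix-coding exons between exon 81 and exon 110. The 3 highest scores among the 11 were 0.732 in exon 100, 0.730 in exon 110 and 0.686 in exon 98, all at GGACT with a GGA codon. The other 3 sites of the gene were in the 3' UTR, 136, 171 and 209 nt downstream of the first base of the stop codon, with scores of 0.810, 0.825 and 0.723. In the last exon 3 of 10 motifs were listed (30.0%, 10.8 to 60.3) and in short internal exons 9 of 202 (4.46%, 2.36 to 8.25).

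COL6A3 (chr2:237324003-237414328, minus strand) had the opposite arrangement. This chain carries many von Willebrand factor A domains on its N-terminal side, and 23 of its 25 sites were in 9 long internal exons of 494 to 699 nt. Exon 5 (585 nt) and exon 11 (600 nt) had 4 sites each, as did exon 38 (699 nt), and exons 4 to 11 together had 18. Only 1 site, with a score of 0.553, was in a short exon, exon 26 of 63 nt, at a GAA codon of the helix, and 1 was in the 5' UTR with a score of 0.787. None of the 15 motifs of its last exon was listed, which allows up to 20%. Its lowest score was 0.542, its median 0.770 and its highest 0.869, and the last of these was at GGACT in exon 8. In the long internal exons 20 of 159 motifs were listed (12.6%, 8.29 to 18.6). The closest pair of sites in all 12 genes was in exon 38, at positions 237340848 (score 0.770) and 237340844 (score 0.843) of chromosome 2, 4 nt apart.

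COL6A2 and COL6A1 lie in the same direction on chromosome 21 (chr21:46098112-46132848 and chr21:45981770-46005050, plus strand). COL6A2 was the gene with the highest listed share in short internal exons, 7 of 37 motifs (18.9%, 9.48 to 34.2). Of its 8 sites there, 6 were in helix-coding exons of 45 to 90 nt with scores from 0.506 to 0.643, 1 was in the 5' UTR at the second base of exon 2, and 1 was at the first base of exon 25. The genomic pentamers of the last 2 reach into the intron. The last exon of 895 nt held 6 sites, 5 of them coding, with scores from 0.625 to 0.887. COL6A1 had 9 of its 11 sites in the last exon of 1658 nt, 3 coding and 6 in the 3' UTR, where the highest score of 0.924 was at AAACT 540 nt downstream of the stop codon. Its other 2 sites were 16 nt from the end of 63-nt exons, with scores of 0.677 and 0.592.

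COL18A1 (chr21:45405165-45513720, plus strand) had no site in a short internal exon, where 0 of 50 motifs were listed, which allows up to 6.0%. Its 14 sites were in 2 blocks. Exon 2, of 545 nt, had 5 sites with scores from 0.676 to 0.888, and 5 of its transcript's 16 motifs in long internal exons were listed. The last exon of 1533 nt had 9 sites, of which 8 were in the 3' UTR. They included the 2 highest scores of all the collagen and laminin sites, 0.953 at GGACT and 0.944 at GGACC, which lay 1181 and 760 nt downstream of the stop codon. All 14 sites were at DRACH.

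COL5A1 (chr9:134641803-134844843, plus strand) had 9 of its 12 sites in the last exon of 2687 nt and 3 in helix-coding exons 17, 39 and 41 of 54, 108 and 54 nt. The site in exon 39 had the highest score of all 36 short-exon sites, 0.773, at GAACA. In the last exon 2 sites were coding, and the 7 in the 3' UTR fell into 3 between 91 and 174 nt and 4 between 1494 and 2032 nt downstream of the stop codon, with scores from 0.707 to 0.890. Of its motifs, 8 of 46 in the last exon (17.4%, 9.09 to 30.7) and 3 of 85 in short internal exons (3.53%, 1.21 to 9.87) were listed.

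The sites of COL4A2 had low scores. On its canonical transcript 6 of 9 were in internal exons of 73 to 192 nt, 1 of them in the 5' UTR, with scores from 0.506 to 0.605, and the 3 in the last exon had scores of 0.634, 0.725 and 0.723. The 3 sites of COL13A1 were all in the 5' UTR of an 812-nt first exon, at scores of 0.566, 0.642 and 0.710, within 88 nt of each other. The other site in a first exon was in COL6A3, and 3 of the 6 sites in 5' UTRs came from COL13A1.

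The laminin chains differed from one to the next. LAMA5 has 80 exons, and 5 of its 6 sites were in internal exons of 117 to 171 nt, with scores from 0.514 to 0.660, and the sixth, with a score of 0.890, was in the 3' UTR 87 nt downstream of the stop codon. All 6 sites of LAMB2 were in longer internal exons, 19, 26 and 27 of 232, 242 and 349 nt, with scores from 0.517 to 0.789. LAMB3 had 4 sites, all in the 3' UTR between 95 and 235 nt downstream of the stop codon, with scores from 0.658 to 0.862. The 2 sites of LAMC1 were coding sites of the last exon, 107 and 74 nt upstream of the stop codon, with scores of 0.759 and 0.813, and none of the 82 motifs in its short internal exons was listed, which allows up to 3.66%.

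Gene by gene, the listed share was higher in the last exon than in short internal exons in 9 of the 12 genes, equal at 0 in LAMB2 and COL13A1, and lower in COL6A3. Short internal exons had no site in 5 genes, COL18A1, LAMB2, LAMB3, COL13A1 and LAMC1. The last exon had no site in 3 genes, COL6A3, LAMB2 and COL13A1.

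Scores followed the exon class. The 36 sites in short internal exons had a median score of 0.597 (quartiles 0.526 and 0.646, highest 0.773), the 36 in longer internal exons 0.740 (0.607 and 0.791) and the 46 in last exons 0.776 (0.707 and 0.866). A score of at least 0.7 was reached by 3 of 36 (8.33%, 2.87 to 21.8), 22 of 36 (61.1%, 44.9 to 75.2) and 36 of 46 (78.3%, 64.4 to 87.7). In the other hosts these shares were 28.1% (25.3 to 31.1), 51.5% (49.5 to 53.6) and 69.4% (68.6 to 70.2). The intervals did not overlap in short internal exons and overlapped in the other classes. Over all 125 sites the median was 0.707 (quartiles 0.597 and 0.789), against 0.754 over the whole list. The surrounding 21 nt, the transcript region, the C-to-T transitions and the signal relative to the gene entered the classifier, which ties the score to motif and region. Listing is the call of the same classifier, so the listed shares by motif and by region are tied to these inputs as well.

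**Figure D4:**
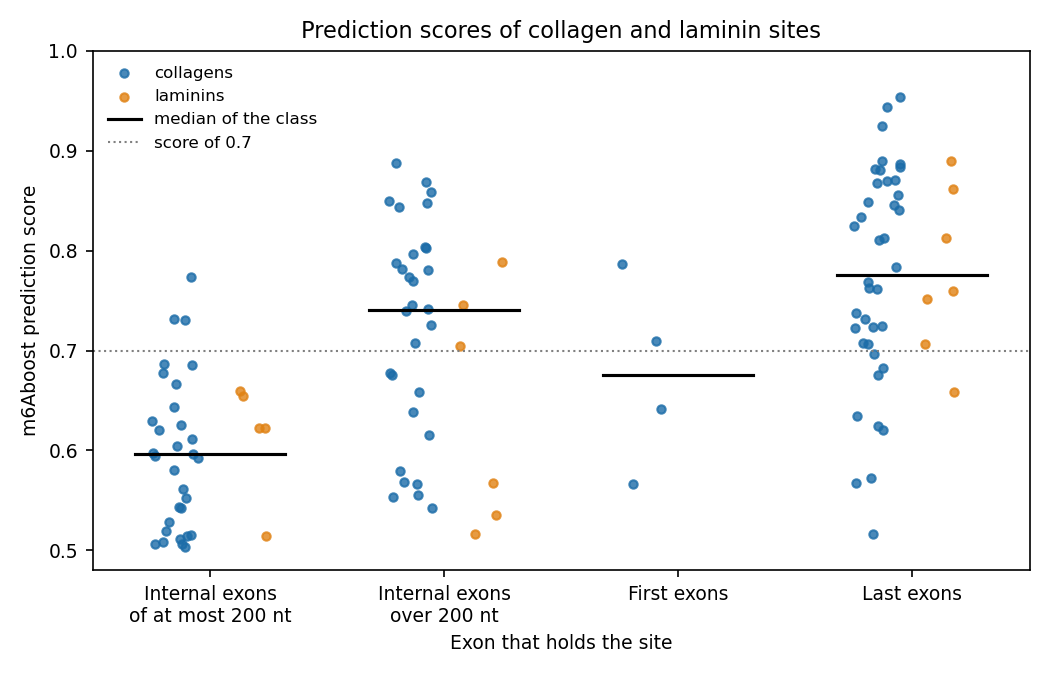
Prediction scores (y axis) of the 122 placed sites by the exon that holds them (x axis), collagens in blue and laminins in orange; black lines are medians of both together and the dotted line marks 0.7. In internal exons of at most 200 nt 3 of 36 sites reach 0.7, and in last exons 36 of 46 do.

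Of the 125 sites, 112 were at DRACH (89.6%, 83.0 to 93.8), against 88.7% of all listed sites, with 33 of 36 in short internal exons and 41 of 46 in last exons. GGACT was the most frequent pentamer with 31 sites (24.8%, 18.1 to 33.0), followed by GGACA with 22 and GGACC with 15. Over all exon classes GGACC was listed at 5.00% of motifs (14 of 280, 3.00 to 8.22) against 9.08% (8.69 to 9.49) in the other hosts, but 229 of the 280 motifs lay in short internal exons, and within short internal exons and within last exons its share was not below that of the other hosts. GGACT was listed at 27.0% (30 of 111, 19.6 to 36.0) against 25.8%. GAACA had 9 sites (7.20%, 3.83 to 13.1) against 2.76% of all listed sites. Of the 13 sites not at DRACH, 8 were GGACG.

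The genes that make, modify and bind collagens and laminins were examined as a list of 92, compiled with the results above known. Sites were found in 36 of them (39.1%, 29.8 to 49.3, beside 19.6% of all protein-coding genes), 296 sites in all. Prolyl and lysyl modification had 10 of 15 genes with 74 sites, led by P3H4 with 14, PLOD1 and COLGALT1 with 11 each, P3H3 with 10, P4HB with 8, P3H1 with 6 and CRTAP with 5, which encode lysyl hydroxylase, collagen galactosyltransferase and members of the prolyl hydroxylase complexes. Folding and secretion had 4 of 12 genes, with 11 sites in FKBP10, 9 in SERPINH1, the collagen chaperone HSP47, and 7 in HSPA5. BMP1, which cleaves procollagen C-propeptides, had 8 and was the 1 gene of 8 with sites in its group. Crosslinking had 4 of 7, with 10 sites each in PXDN and TGM2 and 6 each in LOXL1 and LOXL2.

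Among receptors 5 of 16 genes had sites, led by DAG1 (dystroglycan, a laminin receptor) with 24 and the laminin-binding integrin chain ITGA3 with 20, followed by the collagen-binding ITGA11 with 10 and the collagen receptor kinase DDR1 with 6. The turnover group had 6 of 14, with 12 sites in TIMP2, 9 in MMP14, 6 in MMP2 and 5 in MRC2. Among partners in the matrix 6 of 20 had sites, with 18 in TNC, 16 in AGRN, 11 in THBS1 and 5 in HSPG2. How many of the 92 were expressed was not analysed here.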

How the data were processed

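The authors deposited 1 list of m6A sites that pools 3 biological replicates of miCLIP2 in untreated wild-type C643 cells. Its value is the m6Aboost prediction score, a fraction between 0 and 1, made by the authors. The submitters' processing notes name STAR 2.7.3a, UMI-tools 1.0.0, SAMtools 1.9, bedtools 2.27.1 and GRCh38.p12. The study's supplement lists mapped reads per library, which are not repeated here. The deposited list gives no reads per site, and columns of unknown sample numbered 0.

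Sites were placed on GENCODE release 44 with Python 3.11.15, pysam 0.24.0, numpy 2.4.6 and scipy 1.17.1. The host transcript was the longest protein-coding one with support level at most 3 or none and level at most 2. Listed shares divide listed DRACH motifs by all DRACH motifs of the host transcripts. Short exons were those of at most 200 nt. Positions and intervals were tested on simulated data. All 12 genes with a site were named, with genes of the matrix list at 5 or more sites. Not every gene without a site is reported here by name. Members and lists were chosen with earlier results of these data known. No test between samples was possible with 1 group and no values per replicate. Alternatives changed the score minimum, transcript, exon limit, motif and genes left out.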

Additional observations from a re-analysis of the deposited data

How the results depend on the processing

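The number of genes with a site was 12 under every alternative tried for it. Of 50 alternatives, 31 were planned and 19 were added after seeing the data. In 31 the value stayed inside the interval of the reported value, 18 moved it outside and 1 reversed it. For counts a fixed ratio took the place of the interval, and for the median score the quartiles did. A value that stayed inside could still differ. The short-exon difference from the other hosts was 1.16 points without COL6A2, and the Gly-X-Y difference was 3.61 points on canonical transcripts. At a score of at least 0.7, the last-exon share was 55.7%, the 3' UTR share 42.6%, the share of coding DRACH sites within 100 nt of a junction 32.3%, the DRACH share 95.4%, the listed share of in-frame GGACC motifs 0, the sites of the matrix list 187 and the difference between Gly-X-Y runs and other short-exon motifs 0.885 points. At this score the short-internal-exon difference between collagen and laminin transcripts and all other hosts reversed to -0.0787 points. With no score minimum it was 0.540 points without COL6A2 and COL7A1 and 0.107 points for laminins only. The last-exon share was 48.3% without COL6A3. The difference between last and short internal exons was 12.9 points on canonical transcripts, 12.9 points with COL4A2 alone on its canonical transcript, 21.2 points for GGACT only and 21.4 points for coding motifs only. The share near junctions was 38.2% for a window of 50 nt and 76.5% for 200 nt. The RAC motif took in 96.8% of sites, and GGACC in other frames, over all exon classes, was listed at 9.52%. The cause of these changes was not tested. Leaving out replicates was not possible because the list pools them. No paired analysis was possible because all samples form 1 group. Depth limits every statement about genes without a site.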
